A study of Homo sapiens with 6 samples.

Results

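miR-103 and miR-107 were examined as 4 rows of a miRNA count table, taken by name: hsa-miR-103a-3p, hsa-miR-103b, hsa-miR-107 and hsa-miR-103a-2-5p. The table holds 1582 miRNA rows, of which 506, these 4 among them, passed the filter on low counts. Small RNA libraries came from MDA-MB-231, a human triple-negative breast cancer cell line, in 3 replicates of non-transfected cells (control) and 3 replicates that overexpressed RARαS77A. RARαS77A is a retinoic acid receptor α whose CDK7-phosphorylated serine is replaced by alanine, and the series describes its delivery as lentiviral. No cells with an empty vector or with wild-type RARα were sequenced in the libraries analysed here. Delivery, overexpression of the receptor and the serine change therefore cannot be told apart. Nothing in the sources used here says that each replicate was its own culture, and the p-values measure the spread between these libraries only.

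miRNAs of this family are cut from introns of the pantothenate kinase genes, which encode the enzymes that start coenzyme A synthesis. Their mature 3p arms are known to repress DICER1, the enzyme that cuts miRNA precursors into mature miRNAs, and to act on insulin sensitivity and lipid metabolism. A miRNA finds its targets mainly through its seed, bases 2 to 8 from the 5′ end.

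The mature sequences are shown because they decide which rows can be told apart. All were taken from RefSeq (GRCh38.p14). Capitals mark the seed and, in miR-103a-3p and miR-107, also base 22.
miR-103a-3p: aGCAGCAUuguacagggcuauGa
miR-107: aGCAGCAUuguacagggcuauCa
miR-103b: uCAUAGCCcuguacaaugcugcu
miR-103a-2-5p: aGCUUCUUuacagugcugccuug
miR-103a-1-5p: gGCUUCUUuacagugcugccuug
miR-103a-3p and miR-107 have the same seed and share 22 of their 23 bases. The one difference from miR-103a-3p to miR-107 is G22C, with positions counted from the 5′ end, so a read that ends before base 22 does not tell them apart. miR-103b is the exact reverse complement of miR-103a-3p over all 23 bases. The 5p arms of both miR-103a precursors share a run of 22 bases.

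In GENCODE 29 (GRCh38), MIR103A1 (chromosome 5, minus strand, 168560896 to 168560973) is in an intron of PANK3. MIR103A2 (chromosome 20, plus strand, 3917494 to 3917571) is in an intron of PANK2. MIR107 (chromosome 10, minus strand, 89592747 to 89592827) is in an intron of PANK1. None of the 3 precursors overlaps an exon of an annotated host transcript in the basic set, and each is on the strand of its host gene. MIR103B1 (chr5:168560904-168560965, plus strand) and MIR103B2 (chr20:3917502-3917563, minus strand) are annotated opposite MIR103A1 and MIR103A2. miR-103a-3p can come from both miR-103a precursors, while miR-103a-2-5p is cut from MIR103A2. The authors' build was not stated in the sources used here.

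The libraries held 9019266 to 11338580 counts. miR-21-5p took 44.7% to 51.5% of them. The epithelial miR-200 family, typically low in mesenchymal breast cancer lines, summed over its 5 listed miRNAs to between 87.5 and 125 TPM per library. The stem cell list of miR-302a to miR-302d and miR-367 (5 of 5 in the table) summed to 0.0882 and 0.185 TPM in control replicates 2 and 1, but to 329.6 TPM in control replicate 3 and to 216 to 223 TPM in the RARαS77A libraries. The muscle list of miR-1, miR-133a and miR-206 (3 of 3) was at 91.3 TPM in control replicate 1 and at 2.65 to 4.88 TPM in the other libraries. Counts were scaled with TMM factors, which averaged 1.22 in control and 0.820 in RARαS77A libraries, and levels on that scale are given in CPM, the count over the effective library size times 1000000. The deposited TPM has no such factor.

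miR-107 was lower in RARαS77A cells. In deposited counts it had 7606, 8839 and 6316 reads in control replicates 1 to 3 and 1600, 2418 and 1822 in RARαS77A replicates 1 to 3. The RARαS77A libraries all lay far below the controls, and the groups did not overlap. Of all tested miRNAs, 27.1% lay lower without overlap on the TMM scale. After TMM scaling the controls lay at 610, 601 and 577 CPM and the RARαS77A libraries at 203, 288 and 219 CPM. The means were 596 ± 17.0 and 237 ± 44.9 CPM (SD, n = 3 each). On the log2 scale the difference was -1.33, with a standard error of 0.14 and a 95% interval from -1.66 to -1.003. edgeR's quasi-likelihood test gave an adjusted p of 0.000334 (Benjamini-Hochberg, 506 miRNAs). This corresponds to a 2.52-fold lower level in RARαS77A cells. Of the 506 miRNAs, 21.1% were called lower in the same test and 23.3% higher, and miR-107 ranked 46 by the most negative log2 fold change. The exact permutation test gave p = 0.1 (two-sided), the smallest that 3 against 3 libraries allow.

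miR-103a-3p, the main product of the family, was 17th among all rows by mean count. It had 111830, 123495 and 86798 reads in the control libraries and 60140, 78788 and 55985 in the RARαS77A libraries. On the TMM scale the controls lay at 8968, 8395 and 7930 CPM and the RARαS77A libraries at 7649, 9382 and 6739 CPM. RARαS77A replicate 2 was above all controls and the other RARαS77A libraries were below them, so the groups overlapped. The means were 8431 ± 520 and 7923 ± 1342 CPM (SD, n = 3 each). This was a log2 difference of -0.09 with a standard error of 0.13 and a 95% interval from -0.40 to 0.22, and edgeR gave an adjusted p of 0.610. A difference was not detected on this scale, but the interval leaves room for a modest one in either direction.

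The result for miR-103a-3p depended on the scaling. In the deposited TPM the controls lay between 9624 and 10892 and the RARαS77A libraries between 5591 and 7674, without overlap. The share of all tested miRNAs separated in TPM is not given here. With total counts as the only scaling, edgeR called miR-103a-3p lower by 0.66 on the log2 scale (value -0.66, adjusted p = 0.00478), in a fit that called 42.1% of all tested miRNAs lower. Under upper quartile scaling the log2 fold change was 0.12 (adjusted p = 0.470, edgeR). Between these settings the median log2 fold change of the 506 miRNAs moved from -0.51 with total counts to 0.06 with TMM and 0.27 with upper quartile scaling. Relative to that median, miR-103a-3p was at -0.16, -0.15 and -0.15 and miR-107 at -1.40, -1.39 and -1.40, respectively. miR-107 was called lower in each of these 3 settings.

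**Figure D1:**
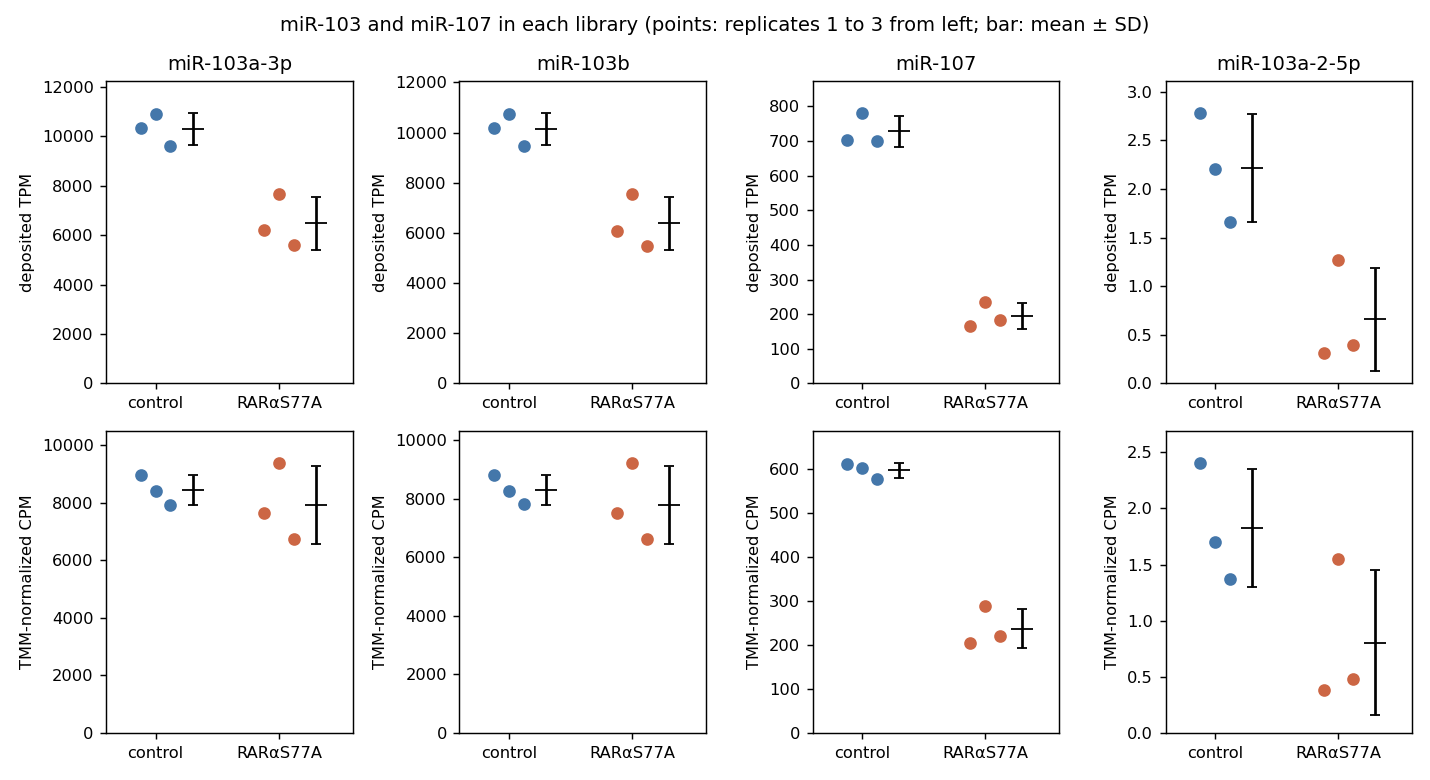
The 4 rows in each library, as deposited TPM (top) and TMM-normalized CPM (bottom), with replicates 1 to 3 of each group from left to right and the mean ± SD beside them. miR-107 is separated on both scales, with 577 to 610 CPM in control and 203 to 288 CPM in RARαS77A libraries. miR-103a-3p and miR-103b are separated in TPM and overlap in CPM.

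Whether miR-107 and miR-103a-3p changed unequally can be read within each library, where the scaling has no effect. For every 100 counts of miR-103a-3p there were 6.80, 7.16 and 7.28 of miR-107 in control replicates 1 to 3. In the RARαS77A libraries there were 2.66, 3.07 and 3.25. Both groups were narrow and well apart. As a share of both rows together, miR-107 took 6.37% in control replicate 1 (95% Wilson interval 6.23 to 6.51) and 3.15% in RARαS77A replicate 3 (3.01 to 3.30), which are the lowest control and the highest RARαS77A library. The intervals cover counting error only. The mean log2 ratio was -3.82 ± 0.05 for the controls and -5.07 ± 0.15 with RARαS77A (SD, n = 3 each), a difference of -1.25. The exact permutation test gave p = 0.1, the smallest possible, and 0.15 after adjustment over the 3 ratios compared. Control replicate 3, which shares stem cell miRNAs with the RARαS77A libraries, had the highest ratio of all libraries, next to control replicate 2. Whether the stem cell miRNAs bear on the ratio was not tested. The ratio assumes that reads were assigned by base 22, and the sources used here do not give how reads that match both rows were assigned.

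miR-103b could not be told apart from miR-103a-3p. Its row had 109976, 121740 and 85526 counts in the control libraries and 58977, 77505 and 55001 in the RARαS77A libraries. In each library this was between 98.1% and 98.6% of the miR-103a-3p count. The miR-103a-3p row was the larger one in all 6 libraries, by 984 to 1854 counts. The chi-squares of these differences summed to 68.1 over 6 libraries, more than counting error gives for rows of equal level counted independently. Rows this alike may not be independent counts, so nothing is concluded from the sum. On the TMM scale miR-103b had a log2 fold change of -0.09 with a standard error of 0.13 (edgeR adjusted p = 0.599), and its ratio to miR-103a-3p gave an exact permutation p of 0.2, unadjusted and adjusted. An antisense transcript would have the reverse complement of the sequence, and a count that respects strand would keep both apart. The sources used here do not state how strand was handled. The values of the miR-103b row are therefore uncertain as a measure of an antisense miRNA, and they are no second measurement of miR-103a-3p. Reverse complementarity over at least 18 bases was found in 54 pairs of rows. In 31 of these the larger row had a mean count of at least 10, and in 12 of the 31, miR-103a-3p with miR-103b included, neither row fell more than 5% short of the other in any library. The miR-103b and miR-107 rows are also such a pair through their near-identical sequence, but miR-107 had only 2.71% to 7.38% of the miR-103b count.

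miR-103a-2-5p, the passenger arm of the PANK2 precursor, was close to the detection limit. It had 30, 25 and 15 counts in the control libraries and 3, 13 and 4 in the RARαS77A libraries. On the TMM scale RARαS77A replicate 2 (1.55 CPM) lay above control replicate 3 (1.37 CPM), so the groups overlapped. In edgeR its log2 fold change was -1.16, with a standard error of 0.54, a 95% interval from -2.42 to 0.09 and an adjusted p of 0.117. This row passed the filter through the control libraries, in which it was high. Without RARαS77A replicate 2 it was called lower, at a log2 difference of -2.03 (edgeR adjusted p = 0.0213), in a fit that called 18.4% of the miRNAs lower. It was also called lower with total counts alone (-1.73, adjusted p = 0.0262, edgeR), where 42.1% of all tested miRNAs were called lower. Without a filter it was called lower too (-1.36, adjusted p = 0.0189, edgeR), where 10.2% of 1582 miRNAs were called lower. Relative to miR-103a-3p there were 26.8, 20.2 and 17.3 counts per 100000 in control replicates 1 to 3, against 4.99, 16.5 and 7.14 in RARαS77A replicates 1 to 3. The RARαS77A libraries were lower, but replicate 2 lay next to the lowest control, and the exact permutation test gave p = 0.1 (0.15 after adjustment over 3 ratios). miR-103a-1-5p, the corresponding arm from PANK3, had 1 count in control replicate 1 and 0 in the other libraries, each of which allows up to 3 counts, at most 0.333 TPM. No fold is given for it. Its sequence shares a run of 22 bases with miR-103a-2-5p, and the sources used here do not give how reads matching both were assigned. The split of these counts between the PANK2 and PANK3 precursors is therefore uncertain.

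Among the others followed, let-7b-5p, miR-15a-5p, miR-15b-5p, miR-16-5p, miR-33a-3p and miR-33b-3p kept their direction and their call in the 18 other settings. Of these, miR-33a-3p and miR-33b-3p had passed the filter through the control libraries, in which they were high. miR-107 also kept its direction and its call in all 18. With edgeR, DESeq2 or limma, 4 other scalings, no filter or each library left out in turn, its log2 fold change lay between -1.92 and -1.13, and its adjusted p was at most 0.00197. Without control replicate 3, where the stem cell miRNAs were high, it was at -1.41, and without control replicate 1, where the muscle miRNAs were high, at -1.33. The highest adjusted p came from a batch term that places control replicate 3 with the RARαS77A libraries and so leaves 1 control in the comparison (log2 fold change -1.28). With this term miR-103a-3p was at -0.0011 (adjusted p = 0.996, edgeR), and 10.9% of all miRNAs were called lower.

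The run AGCAGCA at bases 1 to 7 of miR-103a-3p and miR-107 is the seed, bases 2 to 8, of the miR-15/16 family, whose members are known for repressing cyclins and BCL2. Examples are shown with the seed in capitals.
miR-15b-5p: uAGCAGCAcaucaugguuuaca
miR-16-5p: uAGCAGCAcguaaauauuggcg
miR-424-5p: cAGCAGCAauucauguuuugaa
Among the 1342 rows with a RefSeq sequence, 7 had this seed and no further one had the seed of miR-103 and miR-107. Of the 7, 6 were tested. All 6 were called lower (edgeR, adjusted p up to 0.0219), against 21.1% of all tested miRNAs, and their median log2 fold change was -1.06, against 0.06 over all tested. Several are cut from shared transcripts (miR-15a with miR-16, miR-15b with miR-16, miR-195 with miR-497), so they are not independent of each other. miR-16-5p, the most abundant, averaged 1116 ± 112 CPM in control and 696 ± 50.9 CPM in RARαS77A libraries (SD, n = 3 each). It fell by 0.68 on the log2 scale, with a standard error of 0.10 (edgeR adjusted p = 0.00171). miR-15b-5p, with 3657, 4591 and 2653 counts in control and 862, 1435 and 1041 in RARαS77A libraries, fell by 1.06 on the log2 scale. miR-15a-5p, miR-195-5p, miR-424-5p and miR-497-5p had log2 fold changes of -1.14, -1.21, -0.69 and -1.05. miR-6838-5p had at most 1 count in each library and was not tested. With the batch term 3 of the 6 were called lower, and under upper quartile scaling 5, against 10.9% and 14.6% of all tested miRNAs.

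**Figure D2:**
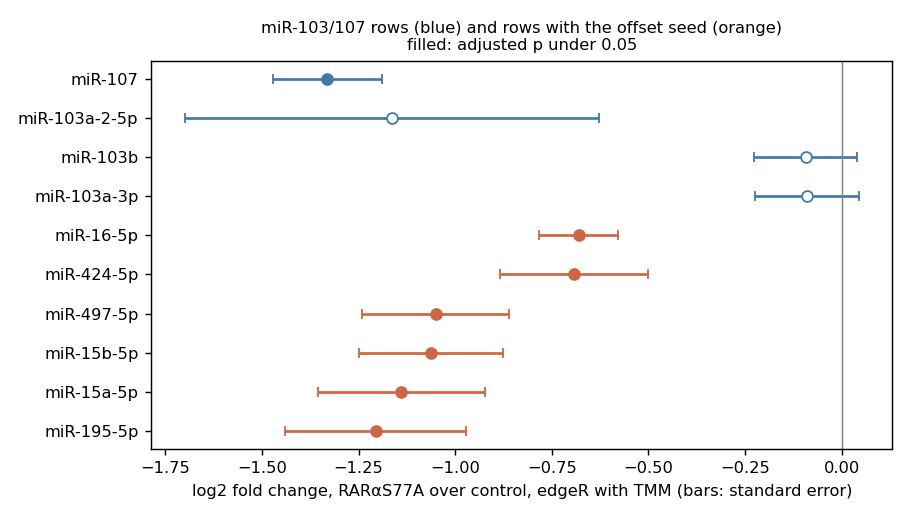
Log2 fold changes (RARαS77A over control, edgeR with TMM) with standard errors for the miR-103 and miR-107 rows in blue and the 6 tested rows with the offset seed in orange, filled where the adjusted p was under 0.05. miR-107, at -1.33, is filled and miR-103a-3p, at -0.09, is not. All 6 rows with the offset seed lie between -1.21 and -0.68.

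Other miRNAs hosted in introns of metabolic genes were miR-33a (SREBF2), miR-33b (SREBF1) and miR-378a (PPARGC1B). Of their 6 arms, 4 were tested, and 3 were called lower and 1 higher (edgeR), against 21.1% and 23.3% of all tested miRNAs. For so few rows this is a description, and 2 of the 3 lower ones, miR-33a-3p and miR-33b-3p, passed the filter through the control libraries, in which they were high. miR-378a-3p averaged 885 ± 16.7 CPM in control and 1295 ± 136 CPM in RARαS77A libraries (SD, n = 3 each). It was 0.55 higher on the log2 scale (edgeR adjusted p = 0.00311), but was at -0.03 under scaling to total counts. The other arm of its precursor, miR-378a-5p, had 306, 364 and 239 counts in control and 115, 93 and 119 in RARαS77A libraries (log2 difference -0.83, edgeR adjusted p = 0.00835), and lost its call under upper quartile scaling (edgeR adjusted p = 0.0566) and with the batch term (edgeR adjusted p = 0.0835). miR-33a-3p had 44 to 70 counts in control and 4 to 16 in RARαS77A libraries, with a log2 fold change of -1.61. miR-33b-3p had 14 to 29 and 2 to 5 counts, with a log2 fold change of -2.16. miR-33a-5p, with 4 to 11 counts, and miR-33b-5p, with at most 1, were not tested.

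let-7 also represses DICER1. Of the 9 let-7 and miR-98 guide strands, all tested, 2 were called lower (let-7b-5p at -0.58 and let-7d-5p at -0.40) and 2 higher (let-7e-5p at 0.56 and let-7f-5p at 0.54), and the median was -0.11 (edgeR). These shares are near the 21.1% lower and 23.3% higher of all tested miRNAs. Under scaling to total counts 6 were called lower and all 9 had a log2 fold change below 0, in a fit with 42.1% of all tested miRNAs lower and a median of -0.51. In edgeR, let-7f-5p lost its call with each RARαS77A library left out in turn (adjusted p = 0.0525, 0.0699 and 0.0861). With the 5 most abundant miRNAs left out of the totals, let-7e-5p and let-7f-5p lost theirs (edgeR adjusted p = 0.0637 and 0.112). let-7d-5p lost its call under upper quartile scaling (edgeR adjusted p = 0.224). With the batch term, let-7d-5p, let-7e-5p and let-7f-5p were at -0.45, 0.40 and 0.26.

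DICER1 mRNA was not measured in these libraries, and its target sites are shown only for what the shared seed of miR-103a-3p and miR-107 would match. The letters ATGCTGC, the reverse complement of seed bases 2 to 8, occur 5 times in the longest annotated 3′ UTR of DICER1 (4270 bases, ENST00000526495.5, GENCODE 29, GRCh38, minus strand of chromosome 14, read in the sense of the mRNA). In 4 of the 5 the next base is A. These 4 are given with its match in capitals.
chr14:95089450-95089479: tatcacacctaaaatATGCTGCagatttta
chr14:95088849-95088878: ttgatgcttcgtggaATGCTGCatttatat
chr14:95086374-95086403: aatatttaccatcacATGCTGCagctgttt
chr14:95086322-95086351: attcatacagtaatcATGCTGCagaaattt
Of the 1794 genes whose longest 3′ UTR has at least 4270 bases, 483 (26.9%) hold at least one such match in their first 4270 bases. How many of them hold 5 or more was not counted. A match is a description of the letters, and both miRNAs match it alike. CAV1, which encodes caveolin-1 and is another known target, has no such match in its longest 3′ UTR (1897 bases), and 14.5% of the 6097 UTRs of at least that length hold one in as many bases.

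Across the 6 libraries, the miRNAs whose log2 CPM followed miR-107 most closely, of 312 with a mean count of at least 50, were miR-93-5p, let-7b-5p and miR-660-5p (Pearson's r of 0.999, 0.994 and 0.994). They had log2 fold changes of -1.06, -0.58 and -1.22. For miR-103a-3p they were miR-191-5p, miR-30d-3p and miR-7-1-3p (r of 0.872, 0.791 and 0.760), with log2 fold changes of -0.09, -0.08 and -0.22. The r between miR-107 and miR-103a-3p was 0.488. These values describe 6 libraries that share the group difference and the scaling. On the TMM scale miR-107 is split by group while miR-103a-3p is not.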

How the data were processed

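Small RNA libraries were made with the NEBNext Multiplex Small RNA kit and sequenced on an Illumina HiSeq platform. The authors deposited 1 table with the read counts of 1582 miRNAs in each library, which are whole numbers and not normalized, and the TPM, which the authors' table gives as the count over the column total without a length term (largest difference 4.74e-05). Bowtie is named in the submitters' processing notes. Its version, the build, the annotation, the handling of strand and of multiple matches were not given in the sources used here. Of 1498 known human miRNA rows, 1342 had a sequence in the RefSeq table.

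Counts were tested with edgeR 4.0.16 in R 4.3.3 (TMM, filterByExpr with a minimum count of 10, glmQLFit and glmQLFTest, no block or batch term, Benjamini-Hochberg adjusted p under 0.05), on 506 miRNAs from libraries of 9019266 to 11338580 counts. For its data in general the study gives Student's t-test, with nothing particular to the sequencing. Standard errors are the log2 fold change over the square root of F. Within-library ratios used counts plus 0.5 and exact two-sided permutation tests (scipy 1.17.1). Alternatives used DESeq2 1.42.0, limma 3.58.1 on the counts (voom) and on deposited TPM (log2, with 1 or 10 added), 4 other scalings, no filter, a replicate block, a batch term and each library left out. A count of 0 allows 3 counts, and 95% Wilson intervals cover counting error only. The edgeR fit and the search for near-identical rows were tested on simulated data with equal numbers of planted rises and falls. The other steps were not tested in this way.

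The members, the lists and the batch term were chosen with earlier results of these data known. Named miRNAs were the 4 members, miR-103a-1-5p, rows with a related seed and a mean count of at least 10, tested members of the other lists, and the 3 rows most correlated with miR-107 and with miR-103a-3p. Members that fell below this rule are named to account for each list. The marker lists included miR-122 for liver, miR-451a and miR-144 for red blood cells and miR-223 and miR-142 for white blood cells (at most 53.6, 19.2 and 6.29 TPM per library). For endocrine cells, miR-375 was not analysed here.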

Additional observations from a re-analysis of the deposited data

How the results depend on the processing

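miR-107 kept its call under all 18 alternatives (-1.47 to -1.28 without single libraries). miR-103a-3p and miR-103b had no call except in the settings that leave out composition factors or the most abundant miRNAs. They were at -0.66 and -0.67 under total counts, at -0.68 each with limma on TPM plus 1, at -0.67 and -0.68 with TPM plus 10, and at -0.33 and -0.34 with the 5 most abundant miRNAs left out of the totals. With each library left out, miR-103a-3p ranged from -0.20 to 0.02 and miR-103b from -0.20 to 0.01. Both were above 0 under upper quartile scaling and without RARαS77A replicate 3. miR-103b has no value where 1 row of each near-identical pair is kept. miR-103a-2-5p was called lower under total counts (-1.73), without a filter (-1.36) and with limma on TPM plus 1 (-0.99) and plus 10 (-0.20). The fits called 42.1%, 10.2% and 43.7% of all tested miRNAs lower under total counts, without a filter and with TPM plus 1. With TPM plus 10, 218 of 506 were called lower. Without single libraries miR-103a-2-5p lay between -2.03 and -0.91. Among these fits it was called lower only without RARαS77A replicate 2 (-2.03, edgeR adjusted p = 0.0213), where 18.4% of the miRNAs were called lower. This row passed the filter through the control libraries, in which it was high. The within-library log2 ratio of miR-107 to miR-103a-3p was -1.31 to -1.16 without single libraries, that of miR-103a-2-5p -1.66 to -0.88 and that of miR-103b -0.0049 to -0.0026.

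The 118 higher miRNAs became 51 under total counts, 55 and 59 with limma on TPM plus 1 and plus 10, and 76 with the batch term. Of the 506 miRNAs, 21.1% were lower, and their number became 213, 221, 218 and 55, and 162 without a filter, where 1582 miRNAs were tested. Without single libraries 101 to 125 were higher and 92 to 116 lower. Of the 6 rows with the offset seed, 3 were called lower with the batch term and 5 to 6 without single libraries. miR-424-5p lost its call without control 1, control 2 or RARαS77A 3, with the batch term and under upper quartile scaling. Of the 4 metabolic and 9 let-7 and miR-98 miRNAs tested, 3 were called higher and 5 lower together. Higher calls became 0 under total counts and with limma on either TPM, and 1 with the batch term or when the 5 top miRNAs left the totals. Lower calls became 9 under total counts, 10 with limma on either TPM, and 3 under upper quartile scaling and with the batch term. Without single libraries 2 to 3 were higher and 5 to 6 lower. Of all 506 tested miRNAs, 42.1% were called lower under total counts, 43.7% with limma on TPM plus 1 and 14.6% under upper quartile scaling.

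Under total counts, limma on TPM plus 1 and plus 10, the sign turned for miR-378a-3p (-0.027, -0.031 and -0.031), let-7e-5p (-0.017, -0.0099 and -0.0099), let-7f-5p (-0.037, -0.031 and -0.031), let-7g-5p (-0.51 in each) and let-7i-5p (-0.27 in each).

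Libraries with the same number had deviations from the group means that correlated at 0.0353, 0.103 and 0.0165 across miRNAs, and the numbers are therefore not taken as pairs. With the replicate block, miR-107 was at -1.35 and miR-103a-3p at -0.10, with 94 lower miRNAs, and no member changed its call. Causes were not tested. The low counts of miR-103a-2-5p limit its precision.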
